A study of Mus musculus with 9 samples.

Results

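The 36 genes described here encode RNA-binding proteins that set which exons are kept in an mRNA, how long the mRNA lasts and when it is translated. They were taken by symbol from the 37224 genes of the count table and comprise the Elavl, Celf, Nova, Rbfox, Srrm, Ptbp, Khdrbs, Msi, Cpeb, Mbnl and Esrp families, Fmr1 and Pum2. All 36 symbols were found, and all 36 were among the 18085 genes that passed a filter on low counts, though Esrp1, Esrp2, Rbfox3, Celf6 and Khdrbs2 were near 0 in at least 1 group and passed through the groups in which they were higher. Elavl3, Celf3 and Srrm3, with 7 to 14, 8 to 12 and 4 to 22 counts per MEF library, likewise passed through the iGABA and GAD67 libraries. The study compared 3 groups of 3 mouse libraries, all of strain C57BL/6. MEF libraries came from unsorted primary embryonic fibroblasts of embryos at E13.5, at passage P0. iGABA libraries came from such fibroblasts after 14 days of conversion toward GABAergic interneurons, of which 2 days were in fibroblast medium and the rest in neuronal medium. GAD67 libraries came from primary cortical interneurons of E18.5. The iGABA and GAD67 cells were sorted for GFP, which in the GAD67 cells reports a gene for a GABA-synthesising enzyme. The study is known to have converted the fibroblasts with delivered transcription factors, Sox2 among them. The MEF labels also mention neuronal inducing medium without saying whether it was given before RNA extraction, so the medium of these cells is uncertain.

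Many exons used by neurons are held out of mRNA in other tissues by Ptbp1, a repressor that also sends the Ptbp2 mRNA to decay. In developing neurons Ptbp1 gives way to its relative Ptbp2, Srrm4 and Srrm3 promote very short neuronal exons, and Nova, Rbfox, neuronal Elavl and neuronal Celf proteins add further control of exon choice and mRNA stability. Mbnl1 and Mbnl2 proteins favour exon patterns of mature tissues and Esrp proteins those of epithelium, while Msi, Cpeb, Fmr1 and Pum2 proteins act mostly on translation. The values below are reads summed over all exons of a gene, so they give the RNA level of each regulator and hold no measure of the exons it controls. In bulk RNA, fewer cells of a type and less RNA per cell cannot be told apart.

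Library totals ran from 27501521 to 38975523 counts. Levels are given as CPM, counts scaled to a common library total after TMM scaling between libraries, and as RPKM, which also divides by exon length, where genes are compared with each other. The labelled cell types were checked against marker genes. The summed level of 10 neuronal markers was 107 to 111 CPM in MEF, 1039 to 1128 in iGABA and 7829 to 8331 in GAD67 libraries. Of these, only Stmn2 was lower in iGABA than in MEF cells, at 23.3 against 33.5 CPM. Only Syp, Snap25 and Nefl were higher in iGABA than in GAD67 cells, Syp at 217 against 94.7 CPM. Summed over 7 interneuron markers, the level was 8.39 to 9.63 CPM in MEF, 671 to 684 in iGABA and 4032 to 4216 in GAD67 libraries. These markers were unequal in iGABA cells, from Gad1 at 405 CPM against 745 in GAD67 cells to Gad2 at 9.45 against 514 and Slc32a1 at 2.83 against 186. Gad1 was the highest of the 7 in iGABA cells. As cells were sorted for GFP, which in GAD67 cells reports a gene of GABA synthesis, Gad1 is no independent check of the labels. The summed level of 10 fibroblast markers was 80505 to 89074 CPM in MEF, 591 to 869 in iGABA and 126 to 134 in GAD67 libraries, with none of the 10 at 0. Markers of glutamatergic cortical neurons summed to 6.28 to 6.88 CPM in MEF, 4.45 to 4.60 in iGABA and 41.4 to 67.6 in GAD67 libraries. Neurod6, Neurod2 and Emx1 were at 0 in MEF libraries. The part of these marker differences in the results below was not tested.

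In iGABA cells 25 of the 36 regulators were higher than in MEF cells, 9 were lower and 2 did not pass the test (edgeR, adjusted p under 0.05 over all genes tested). Over all 18085 genes 81.9% passed in this comparison, 42.1% higher and 39.7% lower, so that a call by itself is common. The median log2 difference of the members was 1.72, against 0.05 for all genes tested. GAD67 cells were higher than MEF cells for 27 members and lower for 7, where 86.9% of all genes passed, 43.1% higher and 43.8% lower. Here the members' median was 2.30, against 0.00 for all genes. Set directly against GAD67 cells, iGABA cells were higher for 9 members and lower for 25, where 80.6% of all genes passed, 41.3% higher and 39.3% lower, and the members' median was -0.81 against 0.02. The 3 comparisons share libraries with each other. Scaled by library size alone, the calls over all genes between iGABA and MEF went from 7618 higher and 7188 lower to 9941 and 5283, and the median of all genes from 0.05 to 0.46, while the members' counts became 26 higher and 7 lower.

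**Figure D1:**
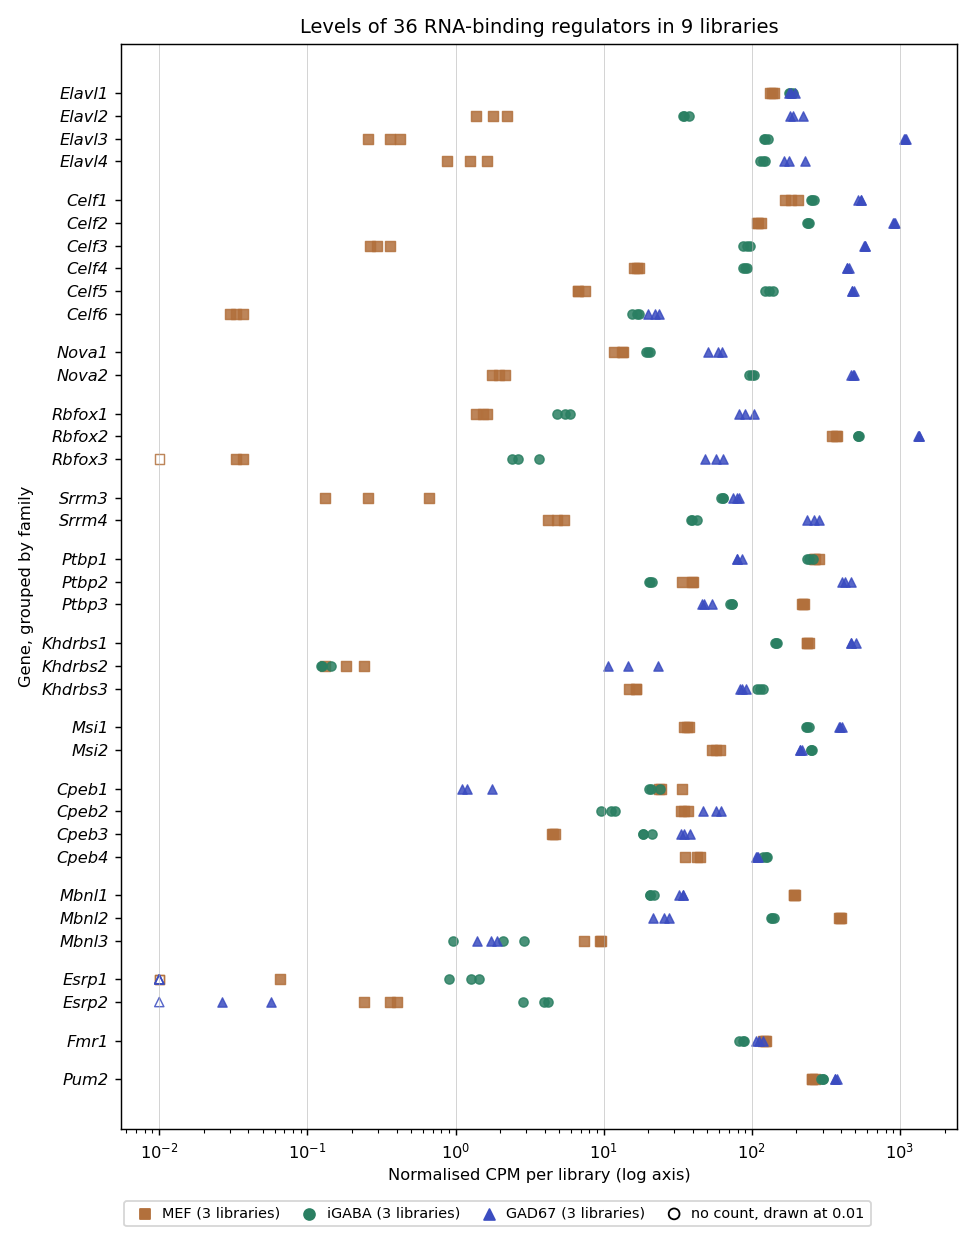
CPM (log axis) of each of the 36 genes in each of the 9 libraries, with the genes ordered by family and the groups told apart by colour and symbol. Open symbols at 0.01 are libraries with no count. Elavl2, Elavl3, Celf3 and Nova2 step up from MEF through iGABA to GAD67, while Ptbp2 is lowest in iGABA.

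By both of its comparisons, the iGABA level lay between those of MEF and GAD67 cells for 22 members, beside 32.4% of all genes. It lay beyond both for 10 members, beside 34.7% of all genes. Cpeb4, Esrp1, Esrp2, Khdrbs3 and Msi2 were higher in iGABA cells than in either other group (19.6% of all genes), and Cpeb2, Fmr1, Khdrbs1, Mbnl1 and Ptbp2 were lower than in either (15.1% of all genes).

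In iGABA cells Ptbp1 and Ptbp2, repressors of neuronal exons, did not follow the interneuron pattern, while their relative Ptbp3 fell as in interneurons. Ptbp1 (ENSMUSG00000006498, mm10 chromosome 10, 79854427 to 79864771) stood at 262, 266 and 283 CPM in the MEF libraries, at 243, 259 and 237 in iGABA and at 79.8, 79.2 and 85.2 in GAD67. The fibroblast and iGABA values are neighbours, and all of them lie well above the interneuron values. GAD67 cells held 3.32-fold less Ptbp1 than MEF cells (log2 -1.73 ± 0.058 SE; edgeR adjusted p = 5.9e-12), and iGABA cells held 3.03-fold more than GAD67 cells (adjusted p = 2.37e-11). Between iGABA and MEF cells the log2 difference was only -0.13 ± 0.056 (edgeR adjusted p = 0.0404). It turned to 0.28 when libraries were scaled by size only (edgeR adjusted p = 0.000186), and the call was lost without MEF replicate 2 or 3, iGABA replicate 4 or 6 or GAD67 replicate 7, with adjusted p from 0.0524 to 0.172. Genes on the opposite strand, one of them Plppr3, overlap 16.3% of the exon length of Ptbp1, and the strand setting of the counting is not given in the sources used here.

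Ptbp2 (ENSMUSG00000028134, chromosome 3, 119718742 to 119783388), the form that replaces Ptbp1 in young neurons, stood at 40.3, 39.6 and 34.0 CPM in MEF, at 20.3, 20.6 and 21.3 in iGABA and at 424, 404 and 463 in GAD67 libraries. The iGABA libraries are the lowest of the 9, and no group overlaps another. GAD67 cells held 11.3-fold more Ptbp2 than MEF cells (log2 3.50 ± 0.077 SE; edgeR adjusted p = 9.56e-14). In iGABA cells it fell 1.83-fold from the MEF level (log2 -0.87 ± 0.076; edgeR adjusted p = 2.03e-07) and lay 20.8-fold below GAD67 cells (adjusted p = 5.91e-14). Ptbp3, the relative known from blood cells, fell in both cell types. It went from 218 to 223 CPM in MEF libraries to 71.1 to 73.9 in iGABA and 46.2 to 53.7 in GAD67 libraries, and its iGABA level was 1.48-fold above that of GAD67 cells (edgeR adjusted p = 1.34e-06).

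A ratio of genes within a library does not depend on the scaling between libraries. The log2 ratio of Ptbp2 to Ptbp1, per exon length, was -2.21, -2.25 and -2.56 in MEF, -3.08, -3.16 and -2.98 in iGABA and 2.90, 2.84 and 2.94 in GAD67 libraries. Ptbp1 was thus 5.07 times as abundant as Ptbp2 in MEF and 8.43 times in iGABA cells, and Ptbp2 was 7.44 times as abundant as Ptbp1 in GAD67 cells. The iGABA ratio differed by -0.73 from that of MEF cells and -5.97 from that of GAD67 cells on the log2 scale, with no overlap of groups. Each of these differences had an exact permutation p of 0.1 (two-sided), the smallest that 3 against 3 can give, and 0.1 after Benjamini-Hochberg adjustment over the 12 ratio comparisons made. Of the summed RPKM of the family, Ptbp1 took 58.2% ± 1.46 in MEF, 76.6% ± 0.734 in iGABA and 11.3% ± 0.331 in GAD67 cells (SD, n = 3), and Ptbp2 took 11.5% ± 1.22, 9.09% ± 0.483 and 84.3% ± 0.311.

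**Figure D2:**
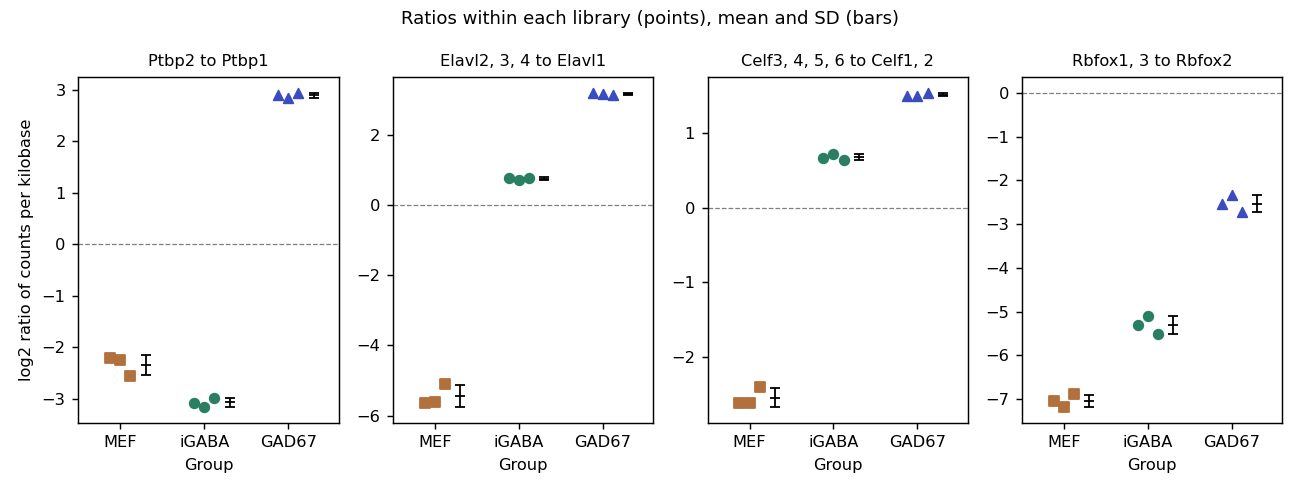
log2 ratio of counts per kilobase within each library for 4 pairs of genes or sums of genes, with 0.5 added to each count. Points are the 3 libraries of a group and bars the mean and SD. The Ptbp2 to Ptbp1 ratio of iGABA libraries, -3.16 to -2.98, lies below MEF and far below GAD67, while the Elavl and Celf ratios of iGABA lie above 0 and between the other groups.

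Of 7 transcripts known to be held low by Ptbp1 through decay-targeting exons or retained introns, Ptbp2 fell in iGABA cells and the other 6 rose relative to MEF. The smallest of the 6 rises was that of Dlg4, from 212 CPM in MEF to 257 in iGABA cells (log2 0.27; edgeR adjusted p = 0.00126). All 7 were higher in GAD67 than in MEF cells. Over all genes 42.1% were higher in iGABA and 43.1% in GAD67 than in MEF cells. Kif5a, a motor of axonal transport, went from 1.12 ± 0.12 CPM in MEF to 137 ± 4.14 in iGABA and 490.4 ± 33.2 in GAD67 cells (SD, n = 3). Sv2a, a synaptic vesicle protein, went from 10.7 ± 0.41 to 161 ± 7.61 and 178 ± 26.7 CPM. Ptbp2 was therefore the member of that list whose iGABA level departed from the direction of the rest.

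The promoters of 3 genes are printed because the factors delivered to iGABA cells bind DNA, and they belong to Elavl3, a neuronal regulator that rose strongly, and to Ptbp1 and Ptbp2, whose ratio did not approach that of interneurons. Each runs from 250 bases before to 50 after the start of transcription, from RefSeq on GRCm38.p6, 5′ to 3′ on the strand of the gene, and capitals mark CAGCTG, a form of the E-box that reads the same on both strands. The Elavl3 window is chr9:22051974-22052273 on the minus strand, that of Ptbp1 is chr10:79854182-79854481 on the plus strand, and that of Ptbp2 is chr3:119783339-119783638 on the minus strand.
Elavl3: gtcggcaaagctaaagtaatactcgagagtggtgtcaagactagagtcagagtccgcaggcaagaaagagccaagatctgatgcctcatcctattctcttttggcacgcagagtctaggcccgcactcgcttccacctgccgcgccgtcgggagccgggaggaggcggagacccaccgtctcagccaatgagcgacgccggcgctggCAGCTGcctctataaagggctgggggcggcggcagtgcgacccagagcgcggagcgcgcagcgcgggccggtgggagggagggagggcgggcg
Ptbp1: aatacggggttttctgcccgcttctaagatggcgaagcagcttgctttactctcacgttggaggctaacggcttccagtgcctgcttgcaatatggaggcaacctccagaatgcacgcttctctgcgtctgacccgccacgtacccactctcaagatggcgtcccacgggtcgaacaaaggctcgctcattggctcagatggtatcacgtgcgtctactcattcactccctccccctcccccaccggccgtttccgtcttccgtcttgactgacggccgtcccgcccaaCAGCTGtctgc
Ptbp2: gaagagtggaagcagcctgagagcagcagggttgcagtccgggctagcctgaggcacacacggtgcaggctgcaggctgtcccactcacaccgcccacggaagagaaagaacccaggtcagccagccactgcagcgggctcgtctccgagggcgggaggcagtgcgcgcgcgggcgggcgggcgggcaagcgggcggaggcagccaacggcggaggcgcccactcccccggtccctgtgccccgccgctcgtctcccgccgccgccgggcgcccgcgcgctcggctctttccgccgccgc
RefSeq windows were examined for 27 of the 36 members, 59 windows in all. Member windows were taken only from chromosomes other than 18, which holds Celf4, a limit not set for the windows of all genes. CAGCTG was in 16 of the 59 member windows, or 27.1%, and in 16.3% of all 32851 windows of this length. Windows of the same gene can overlap, as for Elavl2, Elavl4 and Celf3, so that a site can be counted more than once. The 11 member genes with CAGCTG were Celf3, Celf5, Celf6, Cpeb4, Elavl2, Elavl3, Elavl4, Khdrbs2, Nova1, Ptbp1 and Rbfox1, which include Khdrbs2, not called between iGABA and MEF cells, and Ptbp1. The share of all genes, rather than windows, with CAGCTG is not given here. TAATTA, a homeodomain motif that is the same on both strands, was in 5.08% of member windows and 5.29% of all windows. AACAAAG, a Sox motif searched on both strands, was in 8.47% and 5.85%. Member genes with AACAAAG were Celf2, Celf3, Celf5, Ptbp1 and Rbfox3, and its site in the printed Ptbp1 window is not in capitals. Member windows also differed in base makeup, with a median GC content of 63.0% against 52.7% and a median of 17 CpG dinucleotides against 7. A match is a run of letters and no measure of binding.

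Both Srrm genes, whose proteins promote neuronal microexons, rose in iGABA cells, but the order of the pair was the opposite of that in interneurons. Srrm4 (chromosome 5, 116439272 to 116591817) stood at 5.42, 4.87 and 4.23 CPM in MEF, at 39.4, 38.9 and 42.9 in iGABA and at 263, 235 and 284 in GAD67 libraries. It was 8.375-fold higher in iGABA than in MEF cells (log2 3.07 ± 0.10 SE; edgeR adjusted p = 9.23e-12) and 6.46-fold below GAD67 cells (adjusted p = 4.61e-12). Srrm3 (chromosome 5, 135806890 to 135874772) stood at 0.256, 0.132 and 0.664 CPM in MEF, at 63.5, 64.3 and 61.9 in iGABA and at 79.6, 74.5 and 81.7 in GAD67 libraries. The iGABA values come close to the interneuron values without overlap. Srrm3 rose by 7.43 ± 0.18 on the log2 scale from MEF to iGABA (edgeR adjusted p = 6.7e-13), and by 8.34 without MEF replicate 3, the highest MEF library. It lay 0.31 below GAD67 cells (edgeR adjusted p = 0.0101), a call that was lost when libraries were scaled by size alone (log2 -0.12; edgeR adjusted p = 0.272). Per exon length, Srrm3 made up 65.9% ± 1.64 of the pair in iGABA and 27.1% ± 0.927 in GAD67 cells (SD, n = 3).

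All 4 Elavl genes rose in iGABA cells, and the 3 neuronal ones, which bind U-rich elements of mRNA and stabilise them, rose most. Elavl3 (ENSMUSG00000003410, chromosome 9, 22015005 to 22052023) stood at 0.256, 0.362 and 0.423 CPM in MEF, at 122, 129 and 121 in iGABA and at 1105, 1081 and 1069.5 in GAD67 libraries. No group comes near another. The iGABA level was 349-fold above MEF (log2 8.45 ± 0.11 SE; edgeR adjusted p = 3.1e-15), with 7 to 14 counts per MEF library behind it, and 8.75-fold below GAD67 cells (adjusted p = 9.28e-14). Elavl4 stood at 0.879, 1.25 and 1.63 CPM in MEF, at 122, 114 and 118 in iGABA and at 179, 165 and 227 in GAD67 libraries. It was 92.5-fold above MEF and only 1.61-fold below GAD67 cells (edgeR adjusted p = 6.05e-05). Elavl2 reached 34.3 to 37.5 CPM in iGABA libraries from 1.38 to 2.23 in MEF, and 181 to 222 in GAD67 libraries, 5.56-fold more (edgeR adjusted p = 3.53e-11).

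Elavl1, the widespread member of the family, moved little. It stood at 133 to 140.04 CPM in MEF, 178 to 190 in iGABA and 179 to 195 in GAD67 libraries. It rose 1.34-fold in iGABA cells (edgeR adjusted p = 6.39e-06), and its log2 difference from GAD67 cells was -0.02 (95% interval -0.13 to 0.09; edgeR adjusted p = 0.711). With libraries scaled only by their totals, that difference was 0.17 (edgeR adjusted p = 0.00427). Elavl1 made up 97.8% ± 0.502 of the summed Elavl RPKM in MEF, 37.4% ± 0.713 in iGABA and 10.1% ± 0.202 in GAD67 cells (SD, n = 3). Elavl3 took 70.6% ± 2.5 of the family in GAD67 cells but 30.4% ± 0.727 in iGABA cells, where Elavl4 took nearly as much, 27.0% ± 1.2. The log2 ratio of the 3 neuronal genes to Elavl1 was -5.45 ± 0.309 in MEF, 0.75 ± 0.0439 in iGABA and 3.16 ± 0.032 in GAD67 cells.

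**Figure D3:**
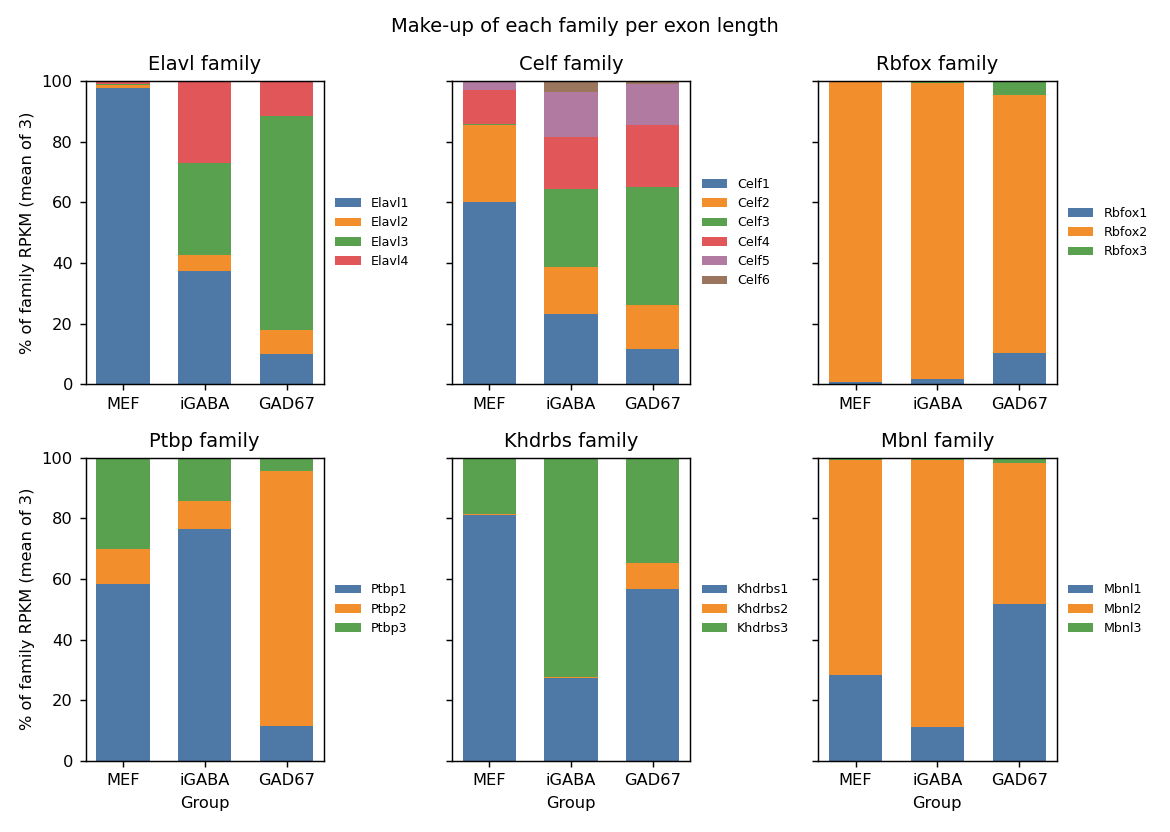
Share (%) of the summed RPKM of 6 families held by each member, as means over the 3 libraries of MEF, iGABA and GAD67 cells. Ptbp1 holds 76.6% of its family in iGABA and Ptbp2 84.3% in GAD67, Khdrbs3 holds 72.5% in iGABA against 34.7% in GAD67, and the Elavl1 share falls from 97.8% to 37.4% to 10.1%.

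All 6 Celf genes, whose proteins bind GU-rich RNA, rose in iGABA cells and lay below GAD67 cells. Celf3 stood at 0.293, 0.263 and 0.362 CPM in MEF, at 92.3, 97.8 and 86.7 in iGABA and at 581, 574 and 580.4 in GAD67 libraries. It was 296-fold higher in iGABA than in MEF cells (log2 8.21 ± 0.11 SE; edgeR adjusted p = 3.63e-15) and 6.27-fold below GAD67 cells (adjusted p = 2.17e-13). Celf6 had 3 counts in all MEF libraries together against 1888 in iGABA and 2454 in GAD67. Its iGABA to MEF ratio was 500.2, with a 95% counting interval of 171 to 2428. At 15.6, 17.2 and 16.7 CPM in iGABA against 22.0, 23.6 and 19.8 in GAD67 libraries it came within 1.32-fold of the interneuron level (edgeR adjusted p = 0.00106).

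Celf5 and Celf4 were already present in fibroblasts. Celf5 went from 6.70 to 7.51 CPM in MEF libraries to 123 to 139 in iGABA and 472 to 488 in GAD67 libraries, and the antisense gene Gm16105 overlaps 8.14% of its exon length. Celf4 went from 15.9 to 17.3 CPM to 87.3 to 92.2 and 437 to 450.0 CPM. Celf2 rose 2.16-fold and Celf1, the most widespread member, 1.38-fold from MEF to iGABA, and they lay 3.83-fold and 2.09-fold below GAD67 cells. The log2 ratio of Celf3, Celf4, Celf5 and Celf6 to Celf1 and Celf2 rose from -2.54 ± 0.127 in MEF to 0.67 ± 0.0421 in iGABA and 1.51 ± 0.0221 in GAD67 cells (SD, n = 3; exact permutation p = 0.1 for each pair of groups). Summed over the family, RPKM was 36.6 ± 2.14, 131 ± 4.9 and 539 ± 3.05.

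Nova proteins regulate exons of synaptic genes, and Nova2 carried most of the family's change. Nova2 stood at 1.98, 2.17 and 1.75 CPM in MEF, at 100.5, 103 and 95.8 in iGABA and at 489, 464 and 481 in GAD67 libraries. It was 50.8-fold higher in iGABA than in MEF cells (log2 5.67 ± 0.08 SE; edgeR adjusted p = 6.22e-15) and 4.79-fold below GAD67 cells (adjusted p = 6.56e-13). Nova1 rose 1.54-fold in iGABA and 4.46-fold in GAD67 cells, from 11.8 to 13.6 CPM in MEF to 19.2 to 20.7 and 50.6 to 63.2 CPM. Per exon length, the share of Nova2 in the pair went from 11.4% ± 1.77 in MEF to 80.7% ± 0.106 in iGABA and 87.4% ± 1.41 in GAD67 cells (SD, n = 3).

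All 3 Rbfox genes rose, but Rbfox1, of neurons and muscle, and Rbfox3, of neurons, remained far from the interneuron level. Rbfox1 (chromosome 16, 6809222 to 7412479) stood at 1.54, 1.38 and 1.63 CPM in MEF, at 5.49, 5.92 and 4.85 in iGABA and at 89.4, 103 and 81.7 in GAD67 libraries. It rose 3.58-fold in iGABA cells (edgeR adjusted p = 9.15e-08) and lay 16.8-fold below GAD67 cells (adjusted p = 7.45e-13). Rbfox3 (chromosome 11, 118489762 to 118911597), whose protein is the neuronal marker NeuN, had 1, 1 and 0 counts in MEF libraries. It stood at 2.65, 3.68 and 2.41 CPM in iGABA and at 57.2, 64.1 and 48.4 in GAD67 libraries, and the iGABA to MEF ratio of counts was 134 with a 95% counting interval of 36.9 to 1114. Rbfox3 was 19.2-fold lower in iGABA than in GAD67 cells (log2 -4.27 ± 0.15 SE; edgeR adjusted p = 2.45e-11).

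Rbfox2, which fibroblasts and many other cells use, dominated in all groups. It stood at 348 to 376 CPM in MEF, 519.8 to 532 in iGABA and 1332 to 1353 in GAD67 libraries, and took 99.3% ± 0.0753, 97.5% ± 0.335 and 85.2% ± 1.66 of the summed RPKM of the family (SD, n = 3). The log2 ratio of Rbfox1 and Rbfox3 to Rbfox2 was -7.04 ± 0.143 in MEF, -5.31 ± 0.2 in iGABA and -2.53 ± 0.189 in GAD67 cells. The iGABA mean differed by 1.73 from MEF and by -2.78 from GAD67 cells, without overlap of groups.

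**Figure D4:**
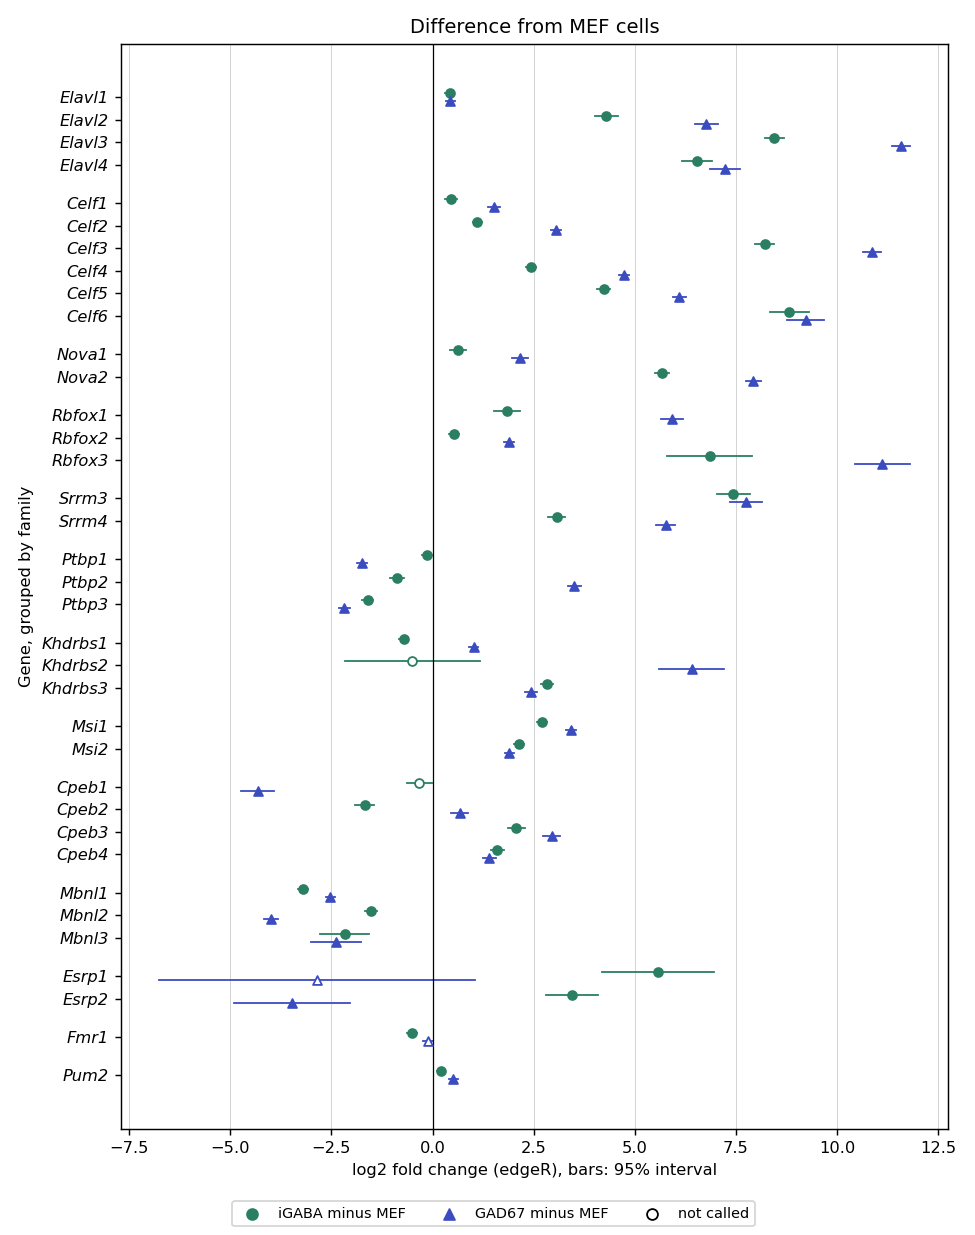
log2 difference of each of the 36 genes from MEF cells, for iGABA and for GAD67 cells, with 95% intervals from the edgeR fit and open symbols where the adjusted p was not under 0.05. For genes with few counts in a group these intervals can be narrower than counting error alone. The pairs lie close together for Elavl1, Celf6, Srrm3 and Cpeb4, and far apart for Ptbp2, Khdrbs2, Cpeb1, Rbfox1 and both Esrp genes.

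The Khdrbs proteins, of which Khdrbs2 and Khdrbs3 are neuronal and choose exons of neurexins, went in different directions. Khdrbs3 stood at 16.5, 14.8 and 16.5 CPM in MEF, at 114, 119 and 109 in iGABA and at 85.6, 83.8 and 90.8 in GAD67 libraries. It rose 7.14-fold in iGABA cells (edgeR adjusted p = 4.15e-13) and was 1.31-fold above GAD67 cells (adjusted p = 4.15e-05). Khdrbs2 (chromosome 1, 32172806 to 32657738) stood at 0.183, 0.132 and 0.242 CPM in MEF and at 0.124, 0.143 and 0.125 in iGABA, with 4 to 8 counts per library, and at 14.7, 10.7 and 23.2 in GAD67 libraries. The MEF and iGABA values overlap (log2 difference -0.50, 95% interval -2.16 to 1.16; edgeR adjusted p = 0.555), and GAD67 cells were 119.8-fold above iGABA cells (adjusted p = 1.53e-09). Khdrbs1, the widespread member, was at 236 to 243 CPM in MEF, fell to 144 to 149 in iGABA and rose to 469.7 to 504 in GAD67 libraries. Khdrbs3 made up 72.5% ± 1.16 of the family in iGABA cells, against 18.49% ± 0.835 in MEF and 34.7% ± 1.01 in GAD67 cells (SD, n = 3).

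Both Msi genes, translational regulators best known in neural progenitors, rose in iGABA cells, to within 1.66-fold of the interneuron level. Msi1 stood at 37.9, 36.6 and 35.1 CPM in MEF, at 232, 235 and 244 in iGABA and at 392, 406 and 385 in GAD67 libraries. It was 6.49-fold above MEF (edgeR adjusted p = 1.13e-13) and 1.66-fold below GAD67 cells (adjusted p = 1.75e-08). Msi2 stood at 54.2 to 60.5 CPM in MEF, 249 to 256 in iGABA and 212 to 217 in GAD67 libraries, which placed iGABA 1.18-fold above GAD67 cells (edgeR adjusted p = 0.000767). The summed level of 8 markers of radial glia and astrocytes was 64.9 to 72.9 CPM in MEF, 184 to 194 in iGABA and 102.5 to 103.1 in GAD67 libraries. Aldoc held most of it in iGABA cells at 175 CPM, against 20.9 in MEF and 6.22 in GAD67 cells. Slc1a3 instead fell from 37.3 CPM in MEF to 3.70 in iGABA cells, and Aldh1l1 from 10.7 to 0.582. Hes5 rose from 0.0201 to 8.61 CPM and Fabp7 from 0.501 to 1.13. Pax6 was at 0.0401 CPM in iGABA against 57.1 in GAD67 cells, and Gfap and Aqp4 were at 0.292 and 0.175 in iGABA cells. None of the 8 was at 0, and the part of these markers in the Msi values was not tested.

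The Cpeb proteins, which control poly(A) tail length and local translation, split by member. Cpeb4 stood at 35.5 to 44.7 CPM in MEF, 119.5 to 127 in iGABA and 106 to 109 in GAD67 libraries, and Cpeb3 at 4.50 to 4.72, 18.3 to 21.1 and 33.2 to 38.2 CPM. Cpeb4 rose 3.03-fold and Cpeb3 4.2-fold in iGABA cells. The 1.15-fold excess of Cpeb4 over GAD67 cells (edgeR adjusted p = 0.0224) was lost without iGABA replicate 4 or 6 (edgeR adjusted p = 0.0564 and 0.0623). Cpeb2 stood at 34.7, 36.9 and 33.1 CPM in MEF, at 11.8, 9.65 and 11.3 in iGABA and at 57.3, 46.9 and 62.2 in GAD67 libraries. It fell 3.2-fold in iGABA cells (edgeR adjusted p = 9.89e-09), to 5.09-fold below GAD67 cells.

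Cpeb1, the founding member of that family, kept a level near that of fibroblasts. It stood at 33.6, 24.2 and 23.5 CPM in MEF, at 20.8, 23.8 and 20.3 in iGABA and at 1.20, 1.75 and 1.101 in GAD67 libraries. The MEF and iGABA values overlap, and GAD67 values lie far below both. GAD67 cells held 20.0-fold less than MEF cells (edgeR adjusted p = 9.99e-11) and iGABA cells 15.97-fold more than GAD67 cells. The log2 difference of iGABA from MEF cells was -0.32 (95% interval -0.63 to -0.01; edgeR adjusted p = 0.0524), which DESeq2 called (adjusted p = 0.0330) as did edgeR with other filters or with only the 2 groups, and which was 0.091 when libraries were scaled only by their totals. Leaving out MEF replicate 2 or 3, iGABA replicate 5 or GAD67 replicate 8 or 9 also brought it under the threshold, at log2 differences from -0.42 to -0.31.

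All 3 Mbnl genes, of which Mbnl1 and Mbnl2 encode proteins that promote adult exon patterns, fell in both iGABA and GAD67 cells. Mbnl2 stood at 394, 399 and 389.8 CPM in MEF, at 136, 134 and 142 in iGABA and at 25.7, 21.6 and 27.4 in GAD67 libraries. It fell 2.87-fold in iGABA cells (edgeR adjusted p = 3.1e-10) and was 5.52-fold above GAD67 cells there (adjusted p = 4.99e-12). Mbnl1 stood at 191, 193 and 195 CPM in MEF, at 20.6, 20.4 and 21.8 in iGABA and at 34.5, 32.3 and 34.2 in GAD67 libraries. Its fall of 9.23-fold in iGABA cells (log2 -3.21 ± 0.055 SE; edgeR adjusted p = 2.73e-14) took it 1.61-fold below GAD67 cells. Mbnl3 fell from 7.40 to 9.56 CPM in MEF to 0.956 to 2.91 in iGABA and 1.41 to 1.89 in GAD67 libraries, and iGABA and GAD67 cells were not separated (log2 0.22, 95% interval -0.46 to 0.90; edgeR adjusted p = 0.533). Without iGABA replicate 5 that difference was 0.57 (edgeR adjusted p = 0.0295), and without iGABA replicate 6 it was -0.13.

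Summed Mbnl RPKM was 122 ± 1.02 in MEF, 34.2 ± 1.08 in iGABA and 11.7 ± 0.879 in GAD67 cells (SD, n = 3). Mbnl2 made up 88.4% ± 0.343 of it in iGABA cells and 46.7% ± 2.19 in GAD67 cells. Summed markers of other cell types were also highest in the unsorted fibroblast cultures. The sums were 129 to 134 CPM for 8 muscle markers, 503 to 540 for 8 macrophage markers and 235 to 253 for 7 endothelial markers in MEF libraries. In iGABA libraries they were 5.28 to 6.63, 11.1 to 13.2 and 2.20 to 4.82 CPM, with Myog, C1qa, Cdh5 and Tie1 at 0, and in GAD67 libraries 16.4 to 17.6, 5.70 to 6.92 and 14.3 to 52.2 CPM, with Myod1 and Ckm at 0. Of the endothelial markers, Flt1, at 228 CPM, held most of the MEF sum, and Kdr and Tek also had their highest mean in MEF cells. Pecam1, Cdh5, Tie1 and Cldn5 were instead highest in GAD67 cells, at 3.71, 3.35, 2.42 and 7.03 CPM. In MEF libraries only Cldn5 of these 23 markers was at 0. Their part in the Mbnl values was not tested.

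The Esrp genes, splicing regulators of epithelium, were called higher in iGABA cells than in both other groups, at low levels. Esrp1 (chromosome 4, 11331933 to 11386783) had 0, 2 and 0 counts in MEF, 51, 60 and 29 in iGABA and 0 in every GAD67 library. These gave 1.26, 1.43 and 0.907 CPM in iGABA libraries. The iGABA to MEF ratio was 55.6, with a 95% counting interval of 15.1 to 464 (edgeR adjusted p = 8.27e-06), and iGABA cells were at least 44.9-fold higher than GAD67 cells, taking 3 counts over the GAD67 group as the floor. Without MEF replicate 2 the MEF group has no count of Esrp1, and iGABA cells were at least 24.7-fold higher, with the same floor over the remaining MEF libraries. Esrp2 stood at 0.403, 0.362 and 0.242 CPM in MEF, at 2.87, 4.23 and 3.94 in iGABA and at 0, 0.0265 and 0.0565 in GAD67 libraries. It was 11.0-fold above MEF (edgeR adjusted p = 1.6e-07), and its iGABA to GAD67 ratio was 137 with a 95% counting interval of 46.6 to 668. Without GAD67 replicate 9, which holds 2 of the 3 GAD67 counts, the fitted log2 difference went from 6.92 to 7.79. Genes on the opposite strand, one of them Nfatc3, overlap 7.79% of the exon length of Esrp2.

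Among 10 epithelial markers, Epcam moved with the Esrp genes, at 0.491 CPM in MEF, 30.4 in iGABA and 0.152 in GAD67 cells. Cdh1 was at 0.661, 1.52 and 0 CPM. Krt18 went the other way, from 32.0 CPM in MEF to 1.28 in iGABA cells. The 10 markers summed to 34.9 to 39.3 CPM in MEF, 33.1 to 36.2 in iGABA and 0.409 to 0.742 in GAD67 libraries. At 0 were Krt14 in iGABA, Grhl2 and Ovol1 in MEF, and Cdh1, Cldn7, Krt5 and Krt14 in GAD67 cells. Their part in the Esrp values was not tested.

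Fmr1, a repressor of translation at synapses, and Pum2, a repressor that binds 3′ ends of mRNA, changed little. Fmr1 stood at 122, 119.7 and 124 CPM in MEF, at 86.9, 87.9 and 82.1 in iGABA and at 112, 106 and 119 in GAD67 libraries. Its iGABA level was 1.42-fold below MEF (edgeR adjusted p = 1.65e-06) and 1.31-fold below GAD67 cells (adjusted p = 2.04e-05). The first of these calls failed when libraries were scaled only by their totals (log2 -0.09; edgeR adjusted p = 0.104). Between GAD67 and MEF cells its log2 difference was -0.12 (95% interval -0.24 to 0.00; edgeR adjusted p = 0.0607), which DESeq2 called (adjusted p = 0.0148), as did edgeR with a stricter filter on low counts or without GAD67 replicate 9. Pum2 stood at 253 to 266 CPM in MEF, 294 to 303 in iGABA and 364 to 378 in GAD67 libraries. It rose 1.16-fold in iGABA cells (edgeR adjusted p = 0.00145) and lay 1.23-fold below GAD67 cells.

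Other RNA-binding proteins gave a setting for these values. Beside the counts below, 42.1% of all genes were higher and 39.7% lower in iGABA than in MEF cells. Against GAD67 cells 41.3% of all genes were higher and 39.3% lower, so a call is common. Of 13 SR proteins, general activators of exons, 8 were higher and 2 lower in iGABA than in MEF cells, and 1 was higher and 12 lower than in GAD67 cells. Srsf7 went from 78.0 ± 5.72 CPM in MEF to 159 ± 5.07 in iGABA and 279 ± 32.6 in GAD67 cells (SD, n = 3), and Tra2a from 54.3 ± 2.95 to 96.9 ± 2.59 and 196 ± 53.7. Of 25 hnRNP proteins, a broad class that packages nuclear RNA, 13 were higher and 6 lower in iGABA than in MEF cells, and 1 was higher and 20 lower than in GAD67 cells. Their median log2 difference between iGABA and MEF was 0.16, and that of the SR proteins 0.47, beside 0.05 for all genes. Pcbp3 went from 10.5 ± 0.152 CPM in MEF to 38.4 ± 0.948 in iGABA and 41.1 ± 1.81 in GAD67 cells, and Hnrnph2 from 56.4 ± 1.17 to 108 ± 2.81 and 107 ± 3.7.

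Of 20 other tissue-biased splicing and stability regulators tested, 6 were higher and 11 lower in iGABA than in MEF cells, and 6 were higher and 13 lower in GAD67 than in MEF cells. Their median log2 differences were -0.71 and -2.41. Over all genes 42.1% were higher and 39.7% lower in the first comparison, and 43.1% and 43.8% in the second. Rbpms, a splicing regulator of smooth muscle, went from 55.5 ± 2.52 CPM in MEF to 0.518 ± 0.0151 in iGABA and 0.42 ± 0.273 in GAD67 cells. Zfp36l2, which promotes decay of AU-rich mRNA, went from 239 ± 9.92 to 6.76 ± 0.404 and 5.02 ± 0.457 CPM. Of 20 neuronal RNA transport and translation proteins tested, 11 were higher and 6 lower in iGABA than in MEF cells. Against GAD67 cells 5 were higher and 13 lower, beside 41.3% and 39.3% of all genes. Cyfip2, a partner of the Fmr1 protein, went from 13.8 ± 0.989 CPM in MEF to 278 ± 5.59 in iGABA and 279.5 ± 7.98 in GAD67 cells. Samd4, a translational repressor, went from 139 ± 6.48 to 19.0 ± 0.731 and 4.82 ± 0.302 CPM.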

How the data were processed

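RNA-seq of 3 MEF, 3 iGABA and 3 GAD67 libraries was analysed from the table of read counts per gene that the authors deposited. Per the submitters' processing notes, BWA 0.7.2, featureCounts, DESeq 1.10.1 and the mm10 build were used. Their roles, the strand setting and the annotation release are, however, not given in the sources used here. Groups came from the labels. As these leave unsaid whether the replicates are independent cultures or animals, p-values measure only the spread between these libraries, which may be technical. The members and lists were chosen with earlier results of these data known.

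All 9 libraries were fitted together in edgeR 4.0.16 (R 4.3.3) with the quasi-likelihood test, TMM scaling and filterByExpr (minimum count 10, minimum total 15). Benjamini-Hochberg adjustment ran over 18085 genes, and an adjusted p under 0.05 was called. SE, on the log2 scale, is the difference divided by the square root of the quasi-likelihood F, and fitted 95% intervals are built from it. Where a group holds few counts, both can be narrower than counting error alone, as for Celf6 and Rbfox3 between iGABA and MEF. RPKM is TMM-scaled CPM per kilobase of the deposited exon length. Ratios within a library used counts per kilobase with 0.5 added to each count, compared by exact permutation (scipy 1.17.1). Folds against a gene with 1 to 3 counts in a group are ratios of summed counts with 95% counting intervals. Library totals of 27501521 to 38975523 put 3 counts, the upper limit that a count of 0 allows, at 0.0717 to 0.110 CPM. Counting intervals and floors cover counting error only. All 36 members were named; of each other list, the 2 called genes with the largest difference between iGABA and MEF. Of these, 1 list gene (Samd4b) matched no entry under that name. DESeq2 1.42.0, library-size scaling, other filters, fits of 2 groups, another pseudocount and leaving out each library were alternatives. Of the list of 8 interneuron markers, 1 is not reported here.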

Additional observations from a re-analysis of the deposited data

How the results depend on the processing

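No paired analysis was possible because the titles number the libraries 1 to 9 across groups, so the groups share no replicate numbers. The counts of members kept within 1.5 times their value under the alternatives run, from 25 to 26 higher and 7 to 10 lower for iGABA against MEF, 27 higher and 6 to 8 lower for GAD67 against MEF, and 8 to 10 higher and 24 to 25 lower for iGABA against GAD67. Between 20 and 24 members lay between the other groups and 9 to 11 beyond both. The log2 difference of the Ptbp2 to Ptbp1 ratio stayed between -0.84 and -0.67 for iGABA against MEF, and between -6.02 and -5.93 for iGABA against GAD67, with each library left out in turn.

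Of 108 differences of single members, 99 kept direction and call under the alternatives run for them and 9 did not. With library size alone, Ptbp1 (0.28) and Cpeb1 (0.091) for iGABA against MEF, Fmr1 for GAD67 against MEF (0.11) and Elavl1 for iGABA against GAD67 (0.17) reversed on the log2 scale, while the median of all genes moved by a like amount, to 0.46, 0.22 and 0.22. With each library left out in turn, Elavl1 for iGABA against GAD67 ran from -0.049 to 0.0063, turning positive without iGABA replicate 6 or GAD67 replicate 9 (0.0032), Mbnl3 ran from -0.13 to 0.57, turning negative without iGABA replicate 6, and Esrp1 for GAD67 against MEF ran from -3.44 to 0, the latter without MEF replicate 2, which holds its only 2 counts there. Apart from library size, the causes were not tested. Depth limits Esrp1, Esrp2, Rbfox3, Celf6 and Khdrbs2, which have under 12 counts per library in at least 1 group. It also limits differences from MEF for Elavl3, Celf3 and Srrm3, with 7 to 14, 8 to 12 and 4 to 22 counts per MEF library.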

Other observations

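The longest genes among the members had a lower median difference from the interneuron level. Celf2, Celf4, Rbfox1, Rbfox2, Rbfox3, Khdrbs2 and Msi2 span over 200 kb each in mm10, and their median log2 difference of iGABA from GAD67 cells was -2.29, against -0.69 in the other 29 members. Msi2 was the exception, at 0.24. Over all genes tested, the 894 genes over 200 kb had a median of -0.97 and the 17191 shorter genes one of 0.05. Spearman's rank correlation between span and this difference was -0.24 across the 36 members and -0.13 across all genes tested, as descriptions across genes that share libraries and are not independent replicates. For GAD67 against MEF cells the medians were 4.73 for the 7 long members and 1.53 for the other 29, and 0.88 and -0.02 for all genes on either side of 200 kb. For iGABA against MEF cells the long members were not lower, with medians of 1.84 and 1.60, while all genes over 200 kb had a median of -0.25 against 0.06. The same rank correlation across the 36 members was 0.10 for GAD67 against MEF and -0.14 for iGABA against MEF. The span cutoff was chosen with the data known.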
